A study of Homo sapiens with 6 samples.

Results

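The genes described here encode the proteins that hold epithelial and pluripotent stem cells to each other and to the matrix. They are the classical cadherins CDH1, CDH2 and CDH3, the kidney-type cadherin CDH16, EPCAM, claudins and other tight junction proteins, desmosome proteins, catenins and integrin chains. The 33 members were taken by symbol from a fixed list, and all 33 were found among the 53712 genes of the count table. All 33 had enough counts to enter the test across 16873 genes. Their roles were taken from general knowledge of the proteins.

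The cells were H9, a widely used human embryonic stem line, grown in PXGL medium and labelled naive. The control group received the sense oligonucleotide SO-L1, and the other group received ASO-L1, an antisense oligonucleotide against LINE-1, a retrotransposon, each at 25 nM. Both groups carried the same additions for the first 24 hours: 0.7 µM trans-ISRIB, an inhibitor of the integrated stress response, 5 µM of the caspase inhibitor emricasan and 10 µM of a ROCK inhibitor. ROCK drives the actomyosin contraction that pulls on cell junctions. Unsorted cells were taken at 48 hours, poly(A) RNA was sequenced with a directional kit, and there were 3 libraries in each group, numbered 1 to 3 in both. The model is 1 cell line, and the labels do not say that libraries of a group were separate cultures, so p-values measure the spread between these libraries, which may be technical. In bulk RNA, fewer cells with a transcript and less transcript per cell cannot be told apart.

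Library totals ran from 23330875 to 31164287 counts, and members held between 0.572% and 0.639% of them. ASO-L1 replicate 2 stood apart: in all 11 members called below it was the ASO-L1 library farthest from the control mean. Control replicate 2 differed most from the other controls too. The chi-square of counts per degree of freedom was 11.2 and 12.3 against replicates 1 and 3, and 6.45 between those. Deviations of the 2 libraries numbered 2 from their group means correlated at 0.377. Of the pluripotency genes checked, POU5F1 was at 1265 ± 67.7 CPM (counts per 10⁶ counts, mean ± SD, n = 3) in SO-L1 and 1136 ± 79.4 in ASO-L1. Of 9 tested naive markers 2 were called higher (TFCP2L1, 0.47 ± 0.09, and KLF4, 0.72 ± 0.21) and 3 lower (DPPA3, -0.88 ± 0.16, SUSD2, -0.52 ± 0.10, and DNMT3L, -0.47 ± 0.09, as log2 fold changes). Of all tested genes 18% were called higher and 15.7% lower. KLF17 was at 0.743 ± 0.196 and 0.395 ± 0.146 CPM, and KHDC1L and ARGFX had too few counts to be tested. The knockdown of LINE-1 itself is not analysed here.

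Classical cadherins bind one another across neighbouring cells, and their tails hold catenins, which tie the junction to actin. Claudins and occludin seal the gap between cells at the tight junction, where scaffold proteins of the TJP family anchor them. Desmosomes use their own cadherins, DSG and DSC, and a plaque of plakoglobin, plakophilins and desmoplakin that links to intermediate filaments, while integrins pair an alpha and a beta chain to bind matrix proteins. Human pluripotent cells grow as epithelial colonies with high E-cadherin, and a fall of E-cadherin with a rise of N-cadherin is the best-known mark of epithelial-mesenchymal transition.

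Sequence is shown first because several epithelial genes are textbook targets of SNAI, ZEB and TWIST factors, which bind E-boxes such as CAGGTG. RefSeq promoter windows (GRCh38.p14, 250 bases before a start site) were matched by symbol for 23 of the 33 members. No window was matched for CDH1, CDH3, CDH16, CTNND1, EPCAM, F11R, ITGA3, ITGB4, PKP2 or PKP3. The promoters of CDH1 and CTNND1, called lower, and of CDH16, called higher, were thus not searched. The motif CAGGTG was searched on both strands, so that it also reads CACCTG. It was present in 17.5% of all 35116 windows. Among the members' windows, of which a gene can have several, it was in 4 of 8 (50%) for genes called lower in ASO-L1. For genes called higher it was in 2 of 5 windows (40%, both of OCLN), and for genes not called in 5 of 28 (17.9%). Counted by gene, it was in 4 of 5 called lower (CLDN7, DSG2, ITGA6 and TJP3). It was in 1 of 3 genes called higher and 5 of 15 not called. CLDN7, ITGA6 and TJP3 each also had a window without it. A gene with several windows has more chances of a match, and the share over all genes was not counted. Also searched on both strands were TGANTCA, in 4.88% of the 41 member windows and 6.57% of all windows, and GGAATG, in 4.88% and 11.9%, beside 26.8% of member windows for CAGGTG. These shares are descriptions of few genes, and a match is not a site of binding. The 250 bases upstream of ITGA6, at chr2:172427086-172427335 on the plus strand, hold it at 2 places, shown in capitals. The same hexamer, in capitals with 10 bases on each side, is given for CLDN7 (chr17:7262598-7262623, minus strand), DSG2 (chr18:31498051-31498076, plus strand), TJP3 (chr19:3721720-3721745, plus strand) and, as a member that moved the other way, OCLN (chr5:69492504-69492529, plus strand).
ITGA6 upstream: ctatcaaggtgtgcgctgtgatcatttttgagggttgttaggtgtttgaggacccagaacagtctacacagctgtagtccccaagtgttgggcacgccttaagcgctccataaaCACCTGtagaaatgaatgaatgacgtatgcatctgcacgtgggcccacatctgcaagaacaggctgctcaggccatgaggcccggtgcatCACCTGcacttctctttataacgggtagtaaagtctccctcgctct
CLDN7: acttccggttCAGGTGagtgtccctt
DSG2: gcggcggccaCACCTGgagccgcgcc
TJP3: ggaagaggggCAGGTGcagccgggag
OCLN: atccgagtttCAGGTGaattggtcac

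Across the members, 4 rose and 7 fell after ASO-L1, in a quasi-likelihood test by edgeR, with p-values adjusted over all tested genes by Benjamini-Hochberg and a threshold of 0.05. That is 33.3% of the members, beside 33.7% of all tested genes. In the 2 directions the background was 18% of tested genes higher and 15.7% lower, against 12.1% and 21.2% of the members. The adhesion genes were thus called about as often as genes at large. Their median log2 fold change was -0.03, against -0.01 over all tested genes, and the median size of the change without its sign was 0.18, against 0.27. For 16 members (48.5%) the 2 sets of libraries were fully separate, beside 50.9% of tested genes. ASO-L1 lay above for 7 of them (background 25.8%) and below for 9 (background 25.1%). Those that rose were CDH16, OCLN, ITGA5 and ITGAV, and those that fell were CDH1, CLDN3, CLDN7, TJP3, DSG2, CTNND1 and ITGA6.

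**Figure D1:**
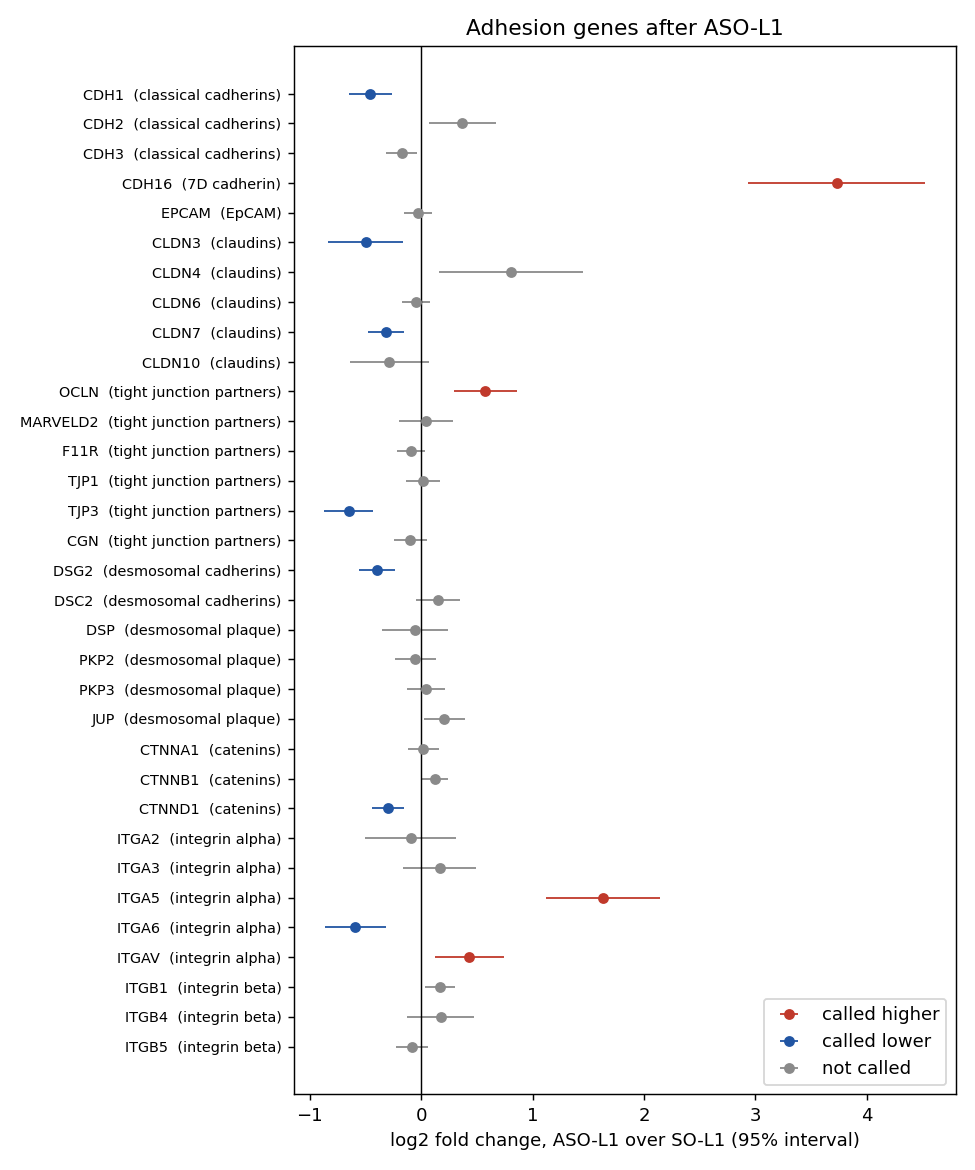
Log2 fold change of each of the 33 members, ASO-L1 over SO-L1, with its 95% interval (unadjusted), ordered by role. Points are coloured by the call at an adjusted p of 0.05; CDH16 (3.73) and ITGA5 (1.63) lie far to the right, and the 7 genes called lower lie between -0.65 and -0.30.

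E-cadherin transcript fell. CDH1 read 319, 314 and 349 CPM in SO-L1 replicates 1 to 3 and 250, 205 and 259 CPM in ASO-L1 replicates 1 to 3. Every ASO-L1 library lay below every control. The log2 fold change was -0.46 ± 0.09 (SE, adjusted p = 0.00459), a difference of -27.1%. Per kilobase of exon CDH1 remained among the more abundant members, at 53.0 ± 3.03 CPM per kb in SO-L1 and 38.6 ± 4.69 in ASO-L1. Dropping replicate 1 from both groups ended the call (adjusted p = 0.0579), as did a test against a 1.2-fold change (0.0537).

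N-cadherin did not pass the test. CDH2 read 13.9, 16.2 and 12.1 CPM in SO-L1 and 15.7, 21.1 and 17.7 CPM in ASO-L1, so that the lowest ASO-L1 library lay under the highest control. Its log2 fold change was 0.37 ± 0.14 (adjusted p = 0.0600), with an adjusted p of 0.00462 with the replicate block. CDH2 was also called on dropping ASO-L1 replicate 1 (0.0360), control replicate 2 (0.0343) or number 2 from both groups (0.00245), by DESeq2 (0.0460) and with no filter (0.0171). Its level stayed far under that of CDH1, at 2.84 ± 0.414 CPM per kb in SO-L1 and 3.67 ± 0.544 in ASO-L1.

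The balance of CDH1 against CDH2 was read as the log2 ratio of their CPM in each library. It was 4.52, 4.28 and 4.85 in SO-L1 and 3.99, 3.29 and 3.87 in ASO-L1. The groups did not overlap, with a mean difference of -0.83. The exact two-sided permutation test gave p = 0.1, the smallest value that 3 against 3 libraries allow.

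P-cadherin, encoded by CDH3 next to CDH1 on chromosome 16, read 144, 144 and 154 CPM in SO-L1 and 130, 125 and 136 CPM in ASO-L1. These groups did not overlap, yet the gene missed the threshold (-0.18 ± 0.06, adjusted p = 0.0539, and 0.0196 with the replicate block, or 0.00910 without replicate 2 of both groups). CDH16, a cadherin best known from kidney tubules that lacks the catenin-binding tail, was nearly silent in controls with 8, 7 and 8 reads. It had 62, 120 and 93 reads in ASO-L1, or 2.56, 5.26 and 3.02 CPM. CDH16 had the largest log2 fold change of the members, 3.73 ± 0.36 (adjusted p = 0.000889), but its level in ASO-L1 was still 0.988 ± 0.396 CPM per kb. EPCAM, a homophilic adhesion protein of epithelia and stem cells, read 345, 346 and 325 CPM in SO-L1 and 336, 329 and 332 CPM in ASO-L1. Its interval of the log2 difference ran from -0.15 to 0.10 (adjusted p = 0.730).

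**Figure D2:**
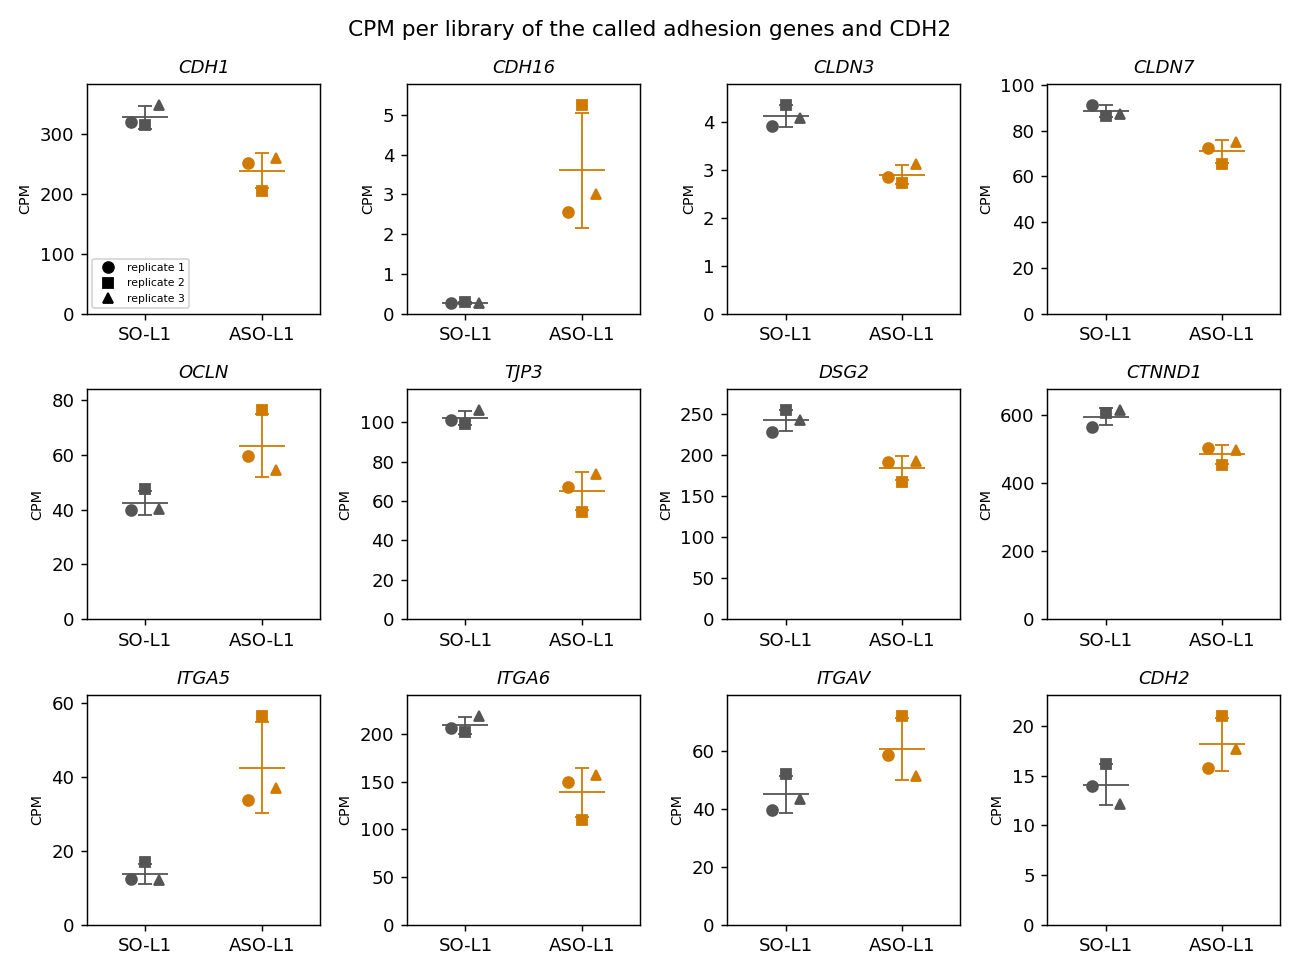
CPM in each library for the 11 called members and CDH2; symbols mark the replicate number, horizontal lines the mean and bars the SD (n = 3). For 10 of the 11 called genes the groups do not overlap, the exception being ITGAV.

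Of the 3 catenins 1 was called. CTNND1, which binds cadherins close to the membrane and keeps them at the surface, fell from 564, 604 and 613 CPM to 502, 451 and 497 CPM (-0.30 ± 0.07, adjusted p = 0.00791). All ASO-L1 libraries were below all controls, and dropping replicate 1 (0.0594) or 3 (0.0808) from both groups ended the call. The test against a 1.2-fold change ended it too (0.371). CTNNB1, the catenin that also carries Wnt signals, was at 629, 614 and 616 CPM against 669, 692 and 658 CPM. The ASO-L1 libraries all lay above the controls, but the difference of 0.12 ± 0.06 did not pass (adjusted p = 0.123). CTNNA1, the link to actin, read 523, 478 and 533 CPM against 515, 513 and 528 CPM, with an interval of the log2 difference from -0.12 to 0.16 (adjusted p = 0.825).

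Among the 5 claudins 2 fell and none rose. CLDN6, a claudin typical of embryonic cells, was the most abundant member per kilobase, at 445 ± 7.94 CPM per kb in SO-L1 and 431 ± 16.0 in ASO-L1. In CPM it read 771, 788 and 761 in SO-L1 and 717, 769 and 760 in ASO-L1, overlapping, with an interval from -0.18 to 0.08 (adjusted p = 0.564). CLDN7 fell from 91.4, 86.5 and 87.3 CPM to 72.6, 65.4 and 75.02 CPM (-0.32 ± 0.07, adjusted p = 0.00880), without overlap. Leaving out replicate 1 of both groups ended this call (0.120), as did the test against a 1.2-fold change (0.298).

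CLDN3 was low throughout, at 3.90, 4.35 and 4.08 CPM in SO-L1 and 2.85, 2.72 and 3.12 CPM in ASO-L1. It was called lower at -0.50 ± 0.15 (adjusted p = 0.0287), although the call did not survive most changes. It ended on dropping any 1 control library (0.0620, 0.0609 and 0.0802 for SO-L1 replicates 1 to 3), ASO-L1 replicate 1 (0.0891) or ASO-L1 replicate 2 (0.0588). Dropping a number from both groups (0.166, 0.0535 and 0.123 for 1 to 3) or using DESeq2 (0.0564) ended it too. So did the test against a 1.2-fold change (0.131). CLDN4, its neighbour on chromosome 7, had higher values after ASO-L1, at 18.5, 30.7 and 20.1 CPM in SO-L1 and 32.0, 54.6 and 34.1 CPM in ASO-L1. Replicate 2 was the highest of both groups, and no libraries overlapped. Without the block CLDN4 was not called (0.80 ± 0.27, adjusted p = 0.0615), and with the replicate block it was (4.39e-07). Limma-voom called it (0.0209), as did fits that dropped replicate 2 from the controls (0.0152) or from both groups (1.16e-10). CLDN10 had 5.72 ± 0.732 and 4.68 ± 0.668 CPM (adjusted p = 0.187). In GENCODE v29, 46.1% of its exon bases overlap exons of the antisense gene DZIP1, so its reads are uncertain where strand was not used in counting.

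Of these 6 other tight junction members 2 were called, OCLN and the scaffold TJP3, in opposite directions. OCLN, which encodes occludin, rose from 39.8, 47.5 and 40.3 CPM to 59.5, 76.4 and 54.4 CPM (0.58 ± 0.13, adjusted p = 0.00832). TJP3, a scaffold of the zonula occludens family found mainly in epithelia, fell from 101, 99.1 and 106 CPM to 67.0, 54.5 and 73.5 CPM (-0.65 ± 0.10, adjusted p = 0.00222). Neither gene's groups overlapped. Without replicate 1 of both groups OCLN was not called (0.0756), while TJP3 was called under all 16 alternative settings, the test against a 1.2-fold change among them.

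The other 4 tight junction members did not pass. TJP1, the general scaffold, read 192, 226 and 217 CPM in SO-L1 and 214, 215 and 213 CPM in ASO-L1, with an interval from -0.13 to 0.17. MARVELD2, which encodes tricellulin, was at 33.4 ± 4.88 and 34.4 ± 2.44 CPM, and the scaffold CGN (cingulin) at 73.4 ± 2.47 and 68.6 ± 3.19 CPM. F11R, which encodes a junctional adhesion molecule, was at 414 ± 4.10 and 388 ± 12.98 CPM (-0.09 ± 0.06, adjusted p = 0.228), and its ASO-L1 libraries all lay below the controls. In GENCODE v29, 36.6% of F11R exon bases are shared with another protein-coding gene on the same strand, so how its reads were assigned is uncertain.

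In the desmosome 1 of 6 members was called. DSG2, the desmoglein of simple epithelia, fell from 229, 255 and 243 CPM to 192, 168 and 193 CPM (-0.39 ± 0.07, adjusted p = 0.00395). No control library was as low as any ASO-L1 library, and the call stood under all alternatives but the test against a 1.2-fold change (0.0854). The desmocollin DSC2 was at 84.9 ± 7.83 and 94.1 ± 9.01 CPM, not called (0.15 ± 0.09, adjusted p = 0.219), except without replicate 2 of both groups (0.0345).

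None of the 4 plaque members was called. DSP, encoding desmoplakin, read 338, 483 and 363 CPM in SO-L1 and 367, 419 and 352 CPM in ASO-L1, with replicate 2 high in both groups and an interval from -0.35 to 0.24. PKP2 had 21.4 ± 0.503 and 20.6 ± 0.813 CPM and PKP3 47.5 ± 0.366 and 48.9 ± 3.79 CPM. JUP, encoding plakoglobin, which serves both desmosomes and cadherin junctions, read 117, 133 and 122 CPM in SO-L1 and 134, 161 and 136 CPM in ASO-L1. Its ASO-L1 libraries were just above the controls, with 0.21 ± 0.08 (adjusted p = 0.0798, 0.00906 with the replicate block and 0.00629 without replicate 2 of both groups).

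Among the 5 integrin alpha chains 2 rose and 1 fell. ITGA5, the alpha chain of the classical fibronectin receptor, read 12.2, 16.9 and 12.04 CPM in SO-L1 and 33.7, 56.5 and 37.0 CPM in ASO-L1. The lowest ASO-L1 library was well above the highest control. Its log2 fold change was 1.63 ± 0.22 (adjusted p = 0.00264), and the call stood under all 16 alternatives. ITGA6, the alpha chain of laminin receptors, fell from 207, 202 and 220 CPM to 150, 110 and 158 CPM (-0.59 ± 0.12, adjusted p = 0.00698), again with no overlap. Dropping replicate 1 from both groups ended this call (0.0573).

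ITGAV, the alpha chain of vitronectin receptors, read 39.5, 52.2 and 43.2 CPM in SO-L1 and 58.5, 72.2 and 51.2 CPM in ASO-L1. The groups overlapped, since SO-L1 replicate 2 exceeded ASO-L1 replicate 3. It was called higher at 0.43 ± 0.14 (adjusted p = 0.0391), but not after dropping control replicate 1 (0.140) or 3 (0.119), ASO-L1 replicate 1 (0.0590) or 2 (0.0791), or replicate 1 from both groups (0.193). The test against a 1.2-fold change did not call it either (0.194). ITGA3 had 16.9 ± 3.12 and 18.9 ± 2.90 CPM and ITGA2, a collagen receptor chain, 2.87 ± 0.288 and 2.69 ± 0.420 CPM, neither called.

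The make-up of the 5 member alpha chains was compared as each chain's share of their summed CPM per kb in a library. This description was chosen after the values were seen, and it leaves out alpha chains that are not members. One of them, ITGA7, was at 3.35 ± 0.236 CPM per kb in SO-L1 and 3.16 ± 0.0136 in ASO-L1. ITGA5 was at 1.81 ± 0.366 and 5.60 ± 1.63. ITGA6 made up 77.4 ± 3.27% in SO-L1 and 58.1 ± 9.57% in ASO-L1. ITGA5 went from 4.37 ± 0.837% to 15.4 ± 4.79%, and ITGAV from 13.2 ± 1.69% to 20.3 ± 4.02%. ITGA6 remained the leading chain in all 6 libraries, with the lowest share, 47.1%, in ASO-L1 replicate 2.

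**Figure D3:**
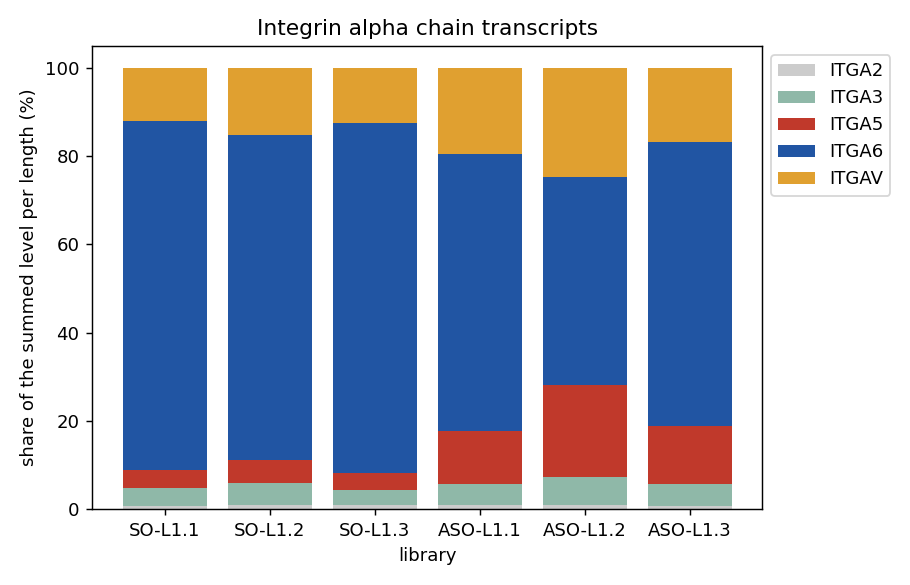
Share of each of 5 integrin alpha chains in their summed CPM per kb, by library; each bar adds to the whole. The ITGA5 share lies between 3.75% and 5.32% in the SO-L1 libraries and between 12.2% and 20.9% in the ASO-L1 libraries.

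None of the 3 beta chains was called. ITGB1, the shared partner of the ITGA2, ITGA3, ITGA5 and ITGA6 chains, read 271, 282 and 269 CPM in SO-L1 and 297, 324 and 304 CPM in ASO-L1, without overlap. At 0.17 ± 0.06 its adjusted p was 0.0501, on the border. It passed with DESeq2-type size factors (0.0493), with a CPM above 1 in 3 libraries (0.0391), by limma-voom (0.0479), with the replicate block (0.0210) and without replicate 2 of both groups (0.00905). ITGB5, which pairs with ITGAV, was at 285 ± 18.8 and 269 ± 8.15 CPM (adjusted p = 0.367). ITGB4, the partner of ITGA6 in hemidesmosomes, was at 6.41 ± 0.272 and 7.26 ± 1.004 CPM (adjusted p = 0.338).

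With the replicate number as a block, 8 members were called higher and 8 lower, where 45.7% of all tested genes were called. CDH2, CLDN4, JUP and ITGB1 joined the higher genes and CDH3 the lower. In the authors' deposited table, 4 members were higher and 6 lower at an adjusted p under 0.05, with 21.4% of its 20964 genes past that threshold. It lists CLDN4 as called (log2 fold change of 0.78, adjusted p = 0.0273), and neither CLDN3 (0.0575) nor ITGAV (0.0501).

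Related genes of the same junctions came from lists of 120 symbols, of which 119 were in the table and 103 were tested. Of these 14 rose (13.6%, beside 18% of all tested genes) and 23 fell (22.3%, beside 15.7%), with a median log2 fold change of -0.14. Together 35.9% were called, near the 33.7% of all tested genes. Of 14 polarity complex genes 1 rose and 7 fell. PARD6B went from 23.1 ± 0.963 to 32.7 ± 4.55 CPM (0.50 ± 0.11), INADL, a scaffold of the Crumbs complex, from 73.3 ± 2.09 to 56.0 ± 2.37 CPM (-0.39 ± 0.07), and CRB2, a Crumbs protein, from 7.25 ± 0.429 to 4.57 ± 0.771 CPM (-0.66 ± 0.15). Without replicate 1 of both groups all 3 were lost (0.0836, 0.0609 and 0.119). Of 15 other tight junction and nectin genes 1 rose and 5 fell, with PVR, a nectin-like receptor, at -0.43 ± 0.07, MAGI3, a scaffold, at -0.73 ± 0.14 and JAM3, a junctional adhesion molecule, at -0.53 ± 0.11. MAGI3 (0.0560) and JAM3 (0.0892) were lost without replicate 1 of both groups.

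Other claudins went both ways, 2 higher and 2 lower of 7. CLDN19 went from 8.46 ± 0.426 to 5.48 ± 0.635 CPM (-0.62 ± 0.13), CLDN15 from 3.09 ± 0.719 to 5.57 ± 0.693 CPM (0.85 ± 0.19) and CLDN12 from 58.2 ± 2.64 to 69.6 ± 5.44 CPM (0.26 ± 0.08). Without replicate 1 of both groups none of these 3 was called (0.0951, 0.0712 and 0.183), and CLDN12 also dropped out without control replicate 1 (0.109) or 3 (0.0910), ASO-L1 replicate 1 (0.0512) or number 3 in both groups (0.0916). Of 12 other cadherins 1 rose, CDH24 (0.41 ± 0.10), and 2 fell, CDH10 (-1.33 ± 0.34) and CDH11 (-0.39 ± 0.12). For CDH24, CDH10 and CDH11 the calls ended on dropping number 1 (0.0923, 0.0529 and 0.118) or number 3 (0.0843, 0.0566 and 0.138) from both groups, and for CDH24 on dropping control replicate 3 (0.0598). The call of CDH11 ended as well on dropping control replicate 2 (0.0747) or 3 (0.0683) or ASO-L1 replicate 1 (0.0854) or 3 (0.0668).

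No gene of 7 other desmosomal genes, 8 other catenins and adaptors or 12 other integrins was called, beside 33.7% of all tested genes. Some had few counts, such as CTNNA2 at 1.05 ± 0.395 CPM and ITGAM at 0.513 ± 0.0493 CPM in SO-L1. For such genes a missing call does not show that the level was unchanged. All 7 desmosomal genes had a log2 fold change below 0, from -0.55 (DSG3) to -0.05 (PERP). The smallest p-values were those of PPL (periplakin, -0.21 ± 0.08, adjusted p = 0.0785) and PKP4 (-0.28 ± 0.12, 0.0893), both called with the replicate block (0.0177 and 0.00312). PPL and PKP4 were called with no filter (0.0308 and 0.00753) and without ASO-L1 replicate 3 (0.0467 and 0.0475) too, and PKP4 without replicate 2 of both groups (0.00273). Among adaptors of cadherin junctions VCL (vinculin, 0.17 ± 0.06, 0.0635), AJUBA (0.21 ± 0.08, 0.0644) and ARVCF (0.21 ± 0.09, 0.0775) were called with the block (0.0267, 0.0140 and 0.0296) and without replicate 2 of both groups (0.0329, 0.00166 and 0.0381), and AJUBA on dropping control replicate 2 (0.0349). In the other integrins the smallest p-values belonged to ITGA11 (0.79 ± 0.33, 0.0836, and 0.0337 without replicate 2 of both groups), ITGA4 and ITGB3, each under 2 CPM.

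Of 14 tested integrin adaptors 6 rose and 4 fell. TNS1, which encodes a tensin, went from 5.17 ± 0.600 to 11.4 ± 2.14 CPM (1.14 ± 0.16, adjusted p = 0.00183) and BCAR1, a focal adhesion scaffold, from 65.1 ± 3.29 to 94.6 ± 11.5 CPM (0.54 ± 0.09, 0.00286). PARVB, an actin-binding partner of integrin-linked kinase, went from 5.73 ± 0.385 to 3.21 ± 0.425 CPM (-0.83 ± 0.15, 0.00391) and was lost without replicate 1 of both groups (0.0609). ILK, a kinase-like protein of most cells, was listed at 0.237 ± 0.0790 CPM in SO-L1 and 0.212 ± 0.0844 in ASO-L1 and not tested. In GENCODE v29, 78.5% of ILK exon bases overlap exons of genes on the other strand.

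Of 14 matrix ligand genes 3 rose and 3 fell. TNC, tenascin C, rose from 4.18 ± 0.508 to 13.1 ± 3.16 CPM (1.65 ± 0.18, adjusted p = 0.00113). LAMB3, a laminin chain of epithelial basement membranes, rose from 10.4 ± 3.02 to 23.3 ± 6.86 CPM (1.17 ± 0.25, 0.0116), and THBS1, thrombospondin, from 36.3 ± 4.37 to 51.0 ± 9.10 CPM (0.49 ± 0.13, 0.0176). The call of LAMB3 ended on dropping number 3 from both groups (0.0788), and that of THBS1 on dropping control replicate 1 (0.0844) or 3 (0.0688) or number 1 (0.0808) or 3 (0.0568) from both. The 3 that fell were FN1, the fibronectin ligand of the ITGA5 receptor, and the laminin chains LAMA5 and LAMB1, named here after their values were seen. Their log2 changes were -0.28 ± 0.08, -0.19 ± 0.07 and -0.24 ± 0.07, and each call ended on dropping control replicate 3 (0.106, 0.156 and 0.117) or ASO-L1 replicate 1 (0.0783, 0.163 and 0.0808). Dropping control replicate 2 also ended those of FN1 (0.050004) and LAMA5 (0.121), control replicate 1 that of LAMB1 (0.0921) and ASO-L1 replicate 3 that of LAMA5 (0.0810). LAMA5 was also not called with DESeq2-type size factors (0.0506), with a CPM above 1 in 3 libraries (0.0523) or by DESeq2 (0.0585), and dropping number 1 (0.0656, 0.118 and 0.203) or 3 (0.148, 0.249 and 0.117) from both groups ended the calls of FN1, LAMA5 and LAMB1.

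**Figure D4:**
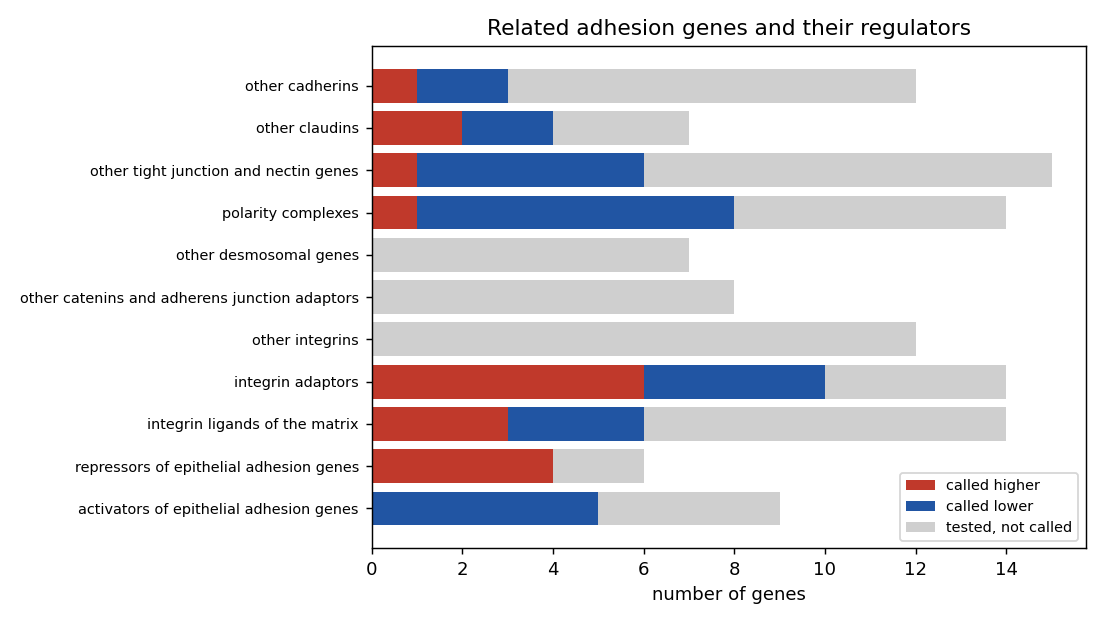
Number of tested genes called higher, called lower and not called in each list of related adhesion genes and of their regulators. Polarity genes stand at 1 higher and 7 lower, repressors at 4 higher, and activators at 5 lower.

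Known regulators of epithelial adhesion genes were counted last. Their lists were chosen with earlier results of these data known, so the shares set beside all tested genes are descriptions only. Of 6 repressors 4 rose and none fell, where 18% of all tested genes rose. SNAI2 went from 0.662 ± 0.308 to 2.99 ± 1.47 CPM (2.19 ± 0.41, adjusted p = 0.00454), TWIST1 from 7.43 ± 3.59 to 40.6 ± 19.7 CPM (2.47 ± 0.49, 0.0168) and ZEB2 from 4.98 ± 2.28 to 15.1 ± 5.89 CPM (1.61 ± 0.38, 0.0199). In each of these 3 all ASO-L1 libraries lay above all controls, and replicate 2 was the highest of both groups. The fourth was SNAI1 (2.74 ± 0.57, 0.0202), named after its value was seen. For TWIST1, ZEB2 and SNAI1 the calls ended on dropping control replicate 3 (0.0537, 0.0667 and 0.0577), on dropping number 3 from both groups (0.130, 0.0814 and 0.131) and with no filter (0.0591, 0.108 and 0.0658), and for ZEB2 on dropping number 1 from both (0.0596).

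Of 9 activators of epithelial genes 5 fell and none rose, where 15.7% of all tested genes fell. ELF3, an epithelial ETS factor, fell from 46.5 ± 3.06 to 27.1 ± 1.01 CPM (-0.78 ± 0.08, adjusted p = 0.00104). GRHL3 fell from 30.4 ± 2.49 to 18.9 ± 0.551 CPM (-0.68 ± 0.09, 0.00163) and GRHL2, like GRHL3 a grainyhead factor, from 16.4 ± 1.501 to 10.5 ± 1.17 CPM (-0.65 ± 0.12, 0.00377). No libraries overlapped in these 3, and GRHL2 was lost without replicate 1 of both groups (0.0677). The other 2 that fell were the splicing regulators ESRP1 (-0.22 ± 0.08, 0.0472) and ESRP2 (-0.30 ± 0.09, 0.0231), named after their values were seen. Dropping control replicate 1 (0.116 and 0.0864) or 3 (0.156 and 0.0884) or ASO-L1 replicate 1 (0.0720 and 0.0604) ended both calls, and dropping replicate 2 of SO-L1 (0.0653) or of ASO-L1 (0.0665) ended that of ESRP1.

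Markers of other cells were counted too, where 18% of all tested genes rose and 15.7% fell. Of 9 tested fibroblast and mesenchymal markers 3 (33.3%) rose and none fell, and 5 had a log2 fold change above 0. The sum over the list ran from 536 to 602 CPM in SO-L1 and from 641 to 736 CPM in ASO-L1. The 3 that rose were COL1A1, TAGLN and PDGFRB. COL1A1 went from 281 ± 13.9 to 329 ± 16.4 CPM and TAGLN from 42.2 ± 4.02 to 105 ± 23.8 CPM, while PDGFRB was under 3 CPM in every library. Of 6 tested trophectoderm markers 2 (33.3%) rose, with sums of 25.1 to 28.3 and 28.0 to 45.4 CPM. Of 6 tested primitive endoderm markers 2 (33.3%) rose, with sums of 111 to 119 and 111 to 115 CPM. These sums were mostly COL4A1, at 105 ± 5.29 and 102 ± 3.83 CPM, so they do not follow the 2 that rose. GATA6 went from 1.57 ± 0.305 to 3.91 ± 2.04 CPM and SOX17 from 0.181 ± 0.0957 to 0.782 ± 0.432 CPM. Amnion markers had 1 higher and 1 lower of 5 (20% each), with sums of 10.9 to 14.97 and 16.7 to 25.1 CPM. HEY1 rose from 1.98 ± 1.25 to 11.7 ± 4.42 CPM and IGFBP5 fell from 7.91 ± 2.03 to 4.06 ± 0.900 CPM. Of those not called, VTCN1 had a log2 fold change below 0 (-0.99), and ISL1 (0.72) and GABRP (0.50) above it. The higher sum was thus not shared by all 5. Of 7 markers of mature epithelia 5 had too few counts to be tested. No gene of these 5 lists was at 0 in every library, and the part of such cells in the changes of adhesion genes was not tested.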

How the data were processed

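The authors' deposited count table gives raw reads for each gene symbol, with duplicates removed according to its name. The submitters' processing notes name build hg19, Subread 1.5.0 with featureCounts, TopHat2 2.0.13 and Trim Galore 0.4.0, without roles; for annotation and strand setting nothing was given in the sources. Where no molecular identifiers are used, duplicate removal can lower abundant genes most. The authors' deposited comparison table gives log2 fold changes, t and B scores, per the file headers, and p-values, from a model that is not stated. Their batch-corrected log2 table was not used.

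Counts were filtered with filterByExpr (minimum count 10, total 15), scaled by TMM and tested with edgeR 4.0.16 (quasi-likelihood, robust, no block, two-sided, Benjamini-Hochberg, adjusted p under 0.05). Limma 3.58.1 and DESeq2 1.42.0 were alternatives. The edgeR, voom and DESeq2 fits were also run on simulated counts. Those had few changed genes, the same dispersion for all genes and no replicate effect, unlike the real libraries. They check the code and not the fit to these data. SE is the unshrunken log2 fold change over the root of F. CPM per kb uses union exon lengths of GENCODE v29 (GRCh38), which may not match the authors' models. Members and lists were chosen with earlier results of these data known. The named genes are all members and the 3 smallest p-values of each related list; others were named after their values were seen. Deviations from group means correlated at 0.102, 0.377 and 0.211 for numbers 1, 2 and 3, which were taken as pairs, although SO-L1 replicate 1 correlated more with ASO-L1 replicate 3 (0.156), and SO-L1 replicate 3 with ASO-L1 replicate 1 at 0.162. No 2 libraries of a group were alike within sampling noise (chi-square per degree of freedom 2.05 to 24.4).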

Additional observations from a re-analysis of the deposited data

How the results depend on the processing

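Alternatives were read by gene for members, called genes of the related and regulator lists, and the 3 smallest p-values of each such list. None of these genes changed sign with a call. Other named genes, such as POU5F1, COL1A1, ITGA7 and PERP, were not read under the alternatives. On leaving out libraries, all genes called ranged from 1183 to 7197, members higher from 2 to 9 and lower from 2 to 7, and related genes higher from 4 to 18 and lower from 1 to 30, with the low ends without replicate 1 of both groups. Without replicate 2 of both groups, which leaves as many libraries, 7197 genes, 9 members higher and 30 related genes lower were called; the cause was not tested. Against a 1.2-fold change, 2066 genes, 2 members lower, 5 related genes higher and 8 lower were called. With the replicate block 7719 genes, 8 members higher and 31 related genes lower were called. The log2 ratio of CDH1 to CDH2 differed by -0.83 with the block as well (p = 0.25 by exact sign flips, the smallest for 3 pairs) and by values between -0.97 and -0.61 without single libraries. Size factors, filters, DESeq2 and limma-voom gave 5 or 6 members higher and 6 or 7 lower. Depth limits CDH16 most, with 7 or 8 control reads and a 95% interval of its log2 change from 2.94 to 4.53.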
